A study of Leptinotarsa decemlineata with 6 samples.

Results

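The 76 genes described here are those of the adult Colorado potato beetle (CPB, *Leptinotarsa decemlineata*) whose best protein match carried a name from juvenile hormone (JH) or ecdysone biology, from yolk, or from the storage and lipid carrier proteins of the blood. The names searched, in the NR (non-redundant protein) and Swissprot columns, were juvenile hormone, ecdys, Krüppel homolog 1, methoprene, farneso, broad-complex, vitellogenin, hexamerin, arylphorin, diapause protein and apolipophorin, and matches named cytochrome P450 were left out. Of 236706 genes in the files, 109 carried such a name, and 76 of these had a mean of at least 1 TPM (a length-corrected share of a library, scaled to a fixed total per library) in a group. The members were thus chosen by annotation and by this floor on mean TPM, the measured value selected on. The other 33 were under that floor, 6 of them listed at 0 in every library, and were not tested.

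The labels and the study give all 6 libraries as made from heads of wild-type adult CPBs. The 3 libraries of the non-treatment group came from beetles that received no antibiotic, and the 3 of the antibiotic group from beetles given leaves soaked in a mixture of tetracycline, penicillin, ofloxacin, ciprofloxacin and ampicillin, with Tween-20 added. The study describes the control feeding in different ways, as sterile water and leaves soaked in Tween-20 for the behaviour test and as untreated fresh leaves for the transcriptome. Which concentration these beetles received, their sex, and how many heads made up a library are not stated in the labels or the methods. The labels also call the material olfactory cells. Nothing states that the libraries came from separate cohorts, so p-values measure the spread between these libraries, which may be technical.

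JH is a sesquiterpenoid made in the corpora allata, a pair of glands behind the brain. The mevalonate pathway supplies farnesyl pyrophosphate, which is turned into farnesol, farnesal and farnesoic acid, and JH acid methyltransferase adds the methyl group. In the blood, JH travels on binding proteins, and in target cells it binds the receptor methoprene-tolerant, which switches on the transcription factor Krüppel homolog 1. JH esterase and JH epoxide hydrolase break it down. In adult CPBs, JH drives reproduction and the making of vitellogenin, the yolk precursor, while low JH goes with diapause and with storage of diapause protein, a hexamerin. Ecdysteroids act through the ecdysone receptor and its partner ultraspiracle on E74, E75 and the broad-complex, and conjugating enzymes can inactivate them.

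Count totals lay between 25397497 and 33613953 in the 5 libraries with counts. The label of the tissue was checked first. Rhodopsin (TRINITY_DN52274_c7_g1), with which photoreceptor cells detect light, lay between 0.252 and 0.639 TPM across the non-treatment replicates and between 138 and 212 TPM across the antibiotic replicates. Of 10 eye and phototransduction genes tested, 7 were higher in the antibiotic group. Ultrabithorax and abdominal-B, which pattern the rear of the body, had means of 1.68 and 1.31 TPM in the non-treatment group and of 0.0783 and 0.0323 TPM in the antibiotic group. Summed over 16 intestains, the cysteine proteases of the CPB gut, the level was 348, 11064 and 1340 TPM in non-treatment replicates 1, 2 and 3 and 9.03, 6.35 and 95.6 TPM in antibiotic replicates 1, 2 and 3. Of 47 sperm and testis genes, 31 were lower in the antibiotic group and 2 higher. Among all genes tested, 7.26% were lower and 2.88% higher. The number of sperm and testis genes lower was 21 to 35 with 1 library left out. It was 12 without non-treatment replicate 2 and antibiotic replicate 3 together. Of 25 brain genes, 5 were lower and 6 higher, and of 8 egg shell and ovary genes none was lower and 2 were higher. With 1 library left out, 1 to 3 brain genes were lower and 2 to 4 higher, and the 2 egg shell and ovary genes became 1 without any 1 non-treatment library and 0 without any 1 antibiotic library. The defining eye marker was thus near 0 in the library group labelled non-treatment, and the treatment cannot be told apart from the tissue makeup of the libraries. In bulk RNA of this kind, fewer cells of a type and less RNA per cell cannot be told apart either.

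**Figure D1:**
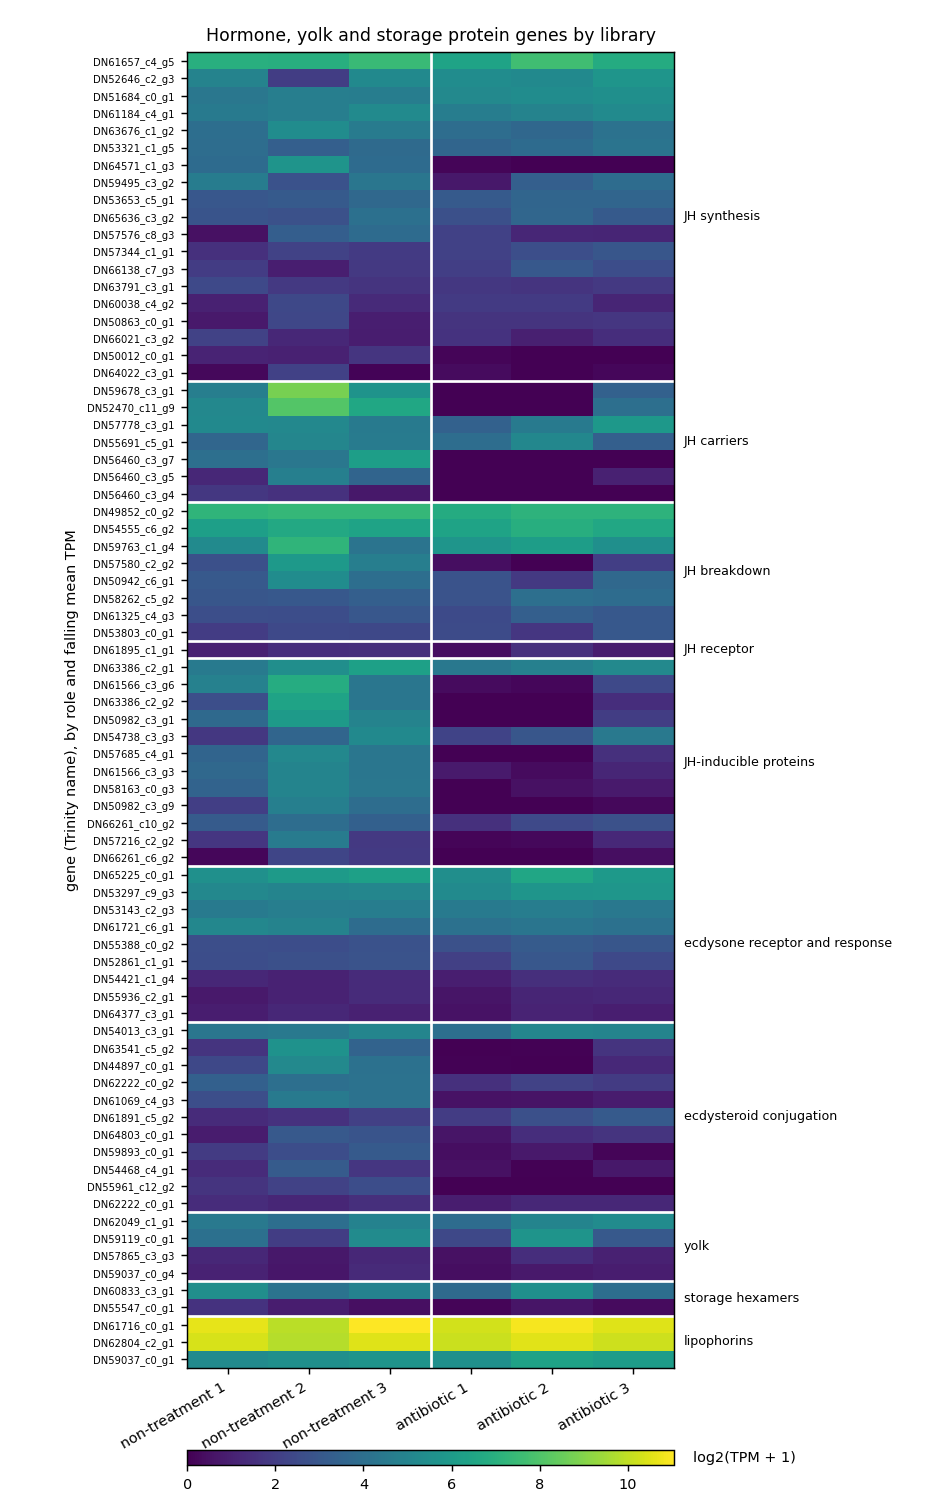
Heat map of the level of the 76 genes, log2(TPM + 1), with genes in rows by role and the 6 libraries in columns. The JH carriers, JH-inducible proteins and ecdysteroid conjugation genes hold most of the rows that are bright in the non-treatment libraries and near 0 in antibiotic replicates 1 and 2.

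Differences were read from a limma fit on log2(TPM + 1) over all 33919 genes past the same floor, as antibiotic minus non-treatment, and a gene was called lower or higher at an adjusted p under 0.05 (Benjamini-Hochberg over all genes tested). Of the 76 genes, 19 were lower in the antibiotic group, none was higher and 57 were not called. Over all genes tested, 7.26% were called lower and 2.88% higher. The floor bears on that count, since 22 of the 76 genes passed it through the non-treatment group only and none through the antibiotic group only, so that these 22 had to be lower on average. They held 13 of the 19 calls, where 24.8% of all genes that passed through the non-treatment group only were called lower. Of the 54 genes over the floor in both groups, 6 were lower, beside 2.67% lower and 2.83% higher among all such genes. The median difference of the 76 was -0.33, and that of all genes tested -0.092; over the floor in both groups it was -0.064 for the 54 and -0.015 for all genes.

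The 19 calls fell in 5 of 10 roles. They comprised 7 of 12 JH-inducible proteins, 5 of 11 genes of ecdysteroid conjugation, 4 of 7 JH carriers, 2 of 19 JH synthesis genes and 1 of 8 JH breakdown genes. None of the 9 genes of ecdysone reception and response, the 4 yolk genes, the 3 lipophorins or the 2 storage hexamers was called, and neither was the JH receptor. At an unadjusted limma p under 0.05 with more than a 2-fold ratio of mean TPM, 25 genes were lower and 2 higher. These are the cutoffs stated in the methods, which applied them to DESeq2 results on counts. At the same cutoffs, 4883 of all 33919 genes were lower and 2025 higher. edgeR with TMM scaling on the 5 libraries with counts called 11 lower and none higher, DESeq2 12 lower and 1 higher. Over all genes, edgeR called 2103 of 36428 lower and 1121 higher, and DESeq2 3169 of 56002 lower and 1307 higher. The count of 19 rested on single libraries: 8 were lower without antibiotic replicate 1, 10 without antibiotic replicate 2 and 12 without non-treatment replicate 2. Without non-treatment replicate 2 and antibiotic replicate 3, which had the highest intestain level of their group, 11 were lower.

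**Figure D2:**
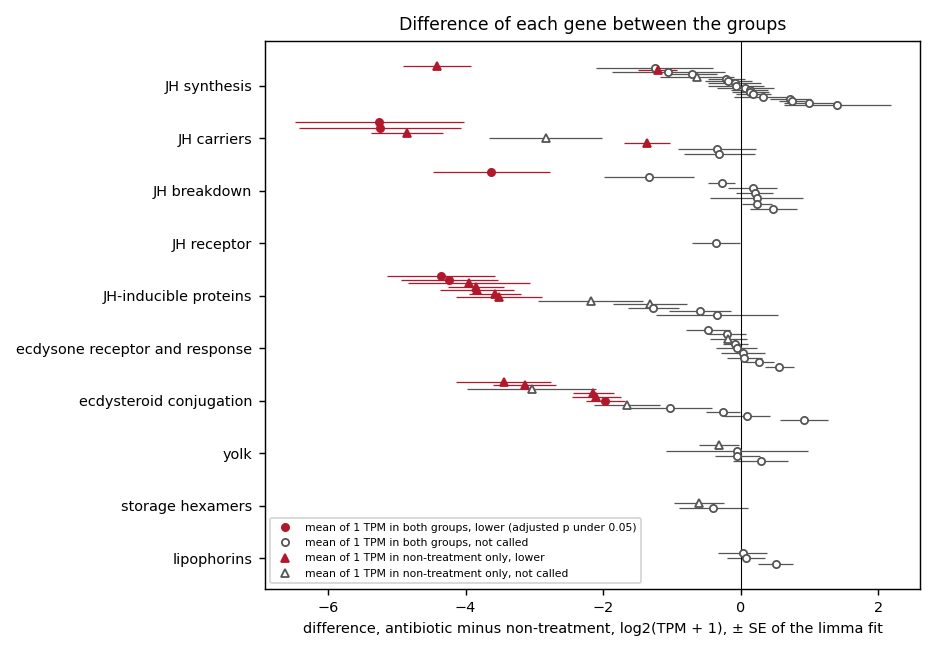
Difference of each of the 76 genes between the groups (x axis, log2(TPM + 1), antibiotic minus non-treatment, with the SE of the limma fit), by role (y axis); circles mark genes over 1 TPM in both groups and triangles genes over it in the non-treatment group only. The 19 filled red symbols, the genes called lower, lie between -5.26 and -1.21.

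A gene name here is that of the best match, often in another insect. The 76 genes held 42 distinct NR matches, 41 of them shared a match with another of the 76, 3 had no NR match, and 24 matched a CPB protein. In addition, 13 lay in 6 Trinity clusters that held more than 1 of the 76, whose reads the assembler could have split, so neighbours in a cluster are no independent measurements.

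JH synthesis. The enzyme closest to the last step is TRINITY_DN59495_c3_g2, which matched the complete coding sequence of CPB JH acid methyltransferase. It had 23.7, 5.78 and 19 TPM in non-treatment replicates 1 to 3 and 0.646, 9.1 and 13.9 TPM in antibiotic replicates 1 to 3. The groups overlapped, with non-treatment replicate 2 and antibiotic replicate 1 the lowest of their group, and the difference of -1.25 ± 0.85 (SE, n = 3 in each group) was not called (limma adjusted p = 0.419). Of the 13 genes with a JH acid methyltransferase match, none was called, and their median difference was 0.13. Another 6 shared this CPB protein as best NR match, with weaker E-values (4.0e-31 for the most abundant, against 4.5e-161).

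The most abundant methyltransferase match, TRINITY_DN52646_c2_g3, had 29.5, 3.02 and 36.5 TPM across the non-treatment replicates and 40.2, 36.8 and 53.6 TPM across the antibiotic replicates. The groups did not overlap, but antibiotic replicate 2 lay only just above non-treatment replicate 3, and the difference of 1.40 ± 0.78 was not called (limma adjusted p = 0.323). TRINITY_DN61184_c4_g1 had 21.6, 25.1 and 37.8 TPM against 24.5, 29.4 and 37.9 TPM, which overlapped (0.13 ± 0.27). Of the remaining 10, only TRINITY_DN66138_c7_g3 kept the groups apart (0.99, limma adjusted p = 0.148), and the 10 had group means between 1.58 and 26.1 TPM.

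The 6 farnesol dehydrogenase matches, relatives of the enzyme that oxidises farnesol in the yellow fever mosquito *Aedes aegypti*, went in different directions. TRINITY_DN61657_c4_g5, the most abundant, had 124, 121 and 176 TPM across the non-treatment replicates and 82.6, 199 and 110 TPM across the antibiotic replicates, and these overlapped. TRINITY_DN51684_c0_g1 had 20, 25.6 and 24.6 TPM against 35.3, 40.3 and 43.9 TPM. Every antibiotic library was above every non-treatment library, and the difference of 0.74 ± 0.19 lay just outside the call (limma adjusted p = 0.0527); it was called higher with median-of-ratios scaling (limma adjusted p = 0.0219). TRINITY_DN64571_c1_g3 was the opposite, with 13.5, 51.4 and 13.4 TPM across the non-treatment replicates and 0.117, 0 and 0 TPM across the antibiotic replicates. It was lower by -4.42 ± 0.49 (limma adjusted p = 0.002), but its match was weak (E-value 1.2e-06) and carried no short-chain dehydrogenase domain. TRINITY_DN50012_c0_g1, with 1.15, 1.02 and 2.28 TPM against 0.123, 0 and 0.024 TPM, was also lower (-1.21 ± 0.29, limma adjusted p = 0.0392). Both had passed the floor in the non-treatment group only, and the latter was called in only 1 of the 6 fits that left out a library, the one without non-treatment replicate 3.

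The steps before farnesol were read from a list of 15 genes of the mevalonate pathway, which also feeds other isoprenoids. Of these, 8 were lower in the antibiotic group and none was higher, beside 7.26% lower and 2.88% higher among all genes tested. The median difference was -1.64. Hydroxymethylglutaryl-CoA synthase (TRINITY_DN57519_c4_g1), the enzyme before the committed step, had 58.3, 15.6 and 75.6 TPM across the non-treatment replicates and 1.51, 4.88 and 5.08 TPM across the antibiotic replicates (-3.24 ± 0.61, limma adjusted p = 0.0154). The reductase that makes mevalonate was present as a pair of CPB matches. TRINITY_DN54682_c2_g1 had 34, 5.75 and 24.2 TPM against 0.501, 1.64 and 2.19 TPM and was lower (-2.96 ± 0.61, limma adjusted p = 0.0221). TRINITY_DN60205_c1_g3 had 8.18, 6.98 and 6.95 TPM against 6.07, 8.64 and 7.23 TPM, which overlapped (-0.02 ± 0.21, limma adjusted p = 0.969).

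Further down the pathway, diphosphomevalonate decarboxylase (TRINITY_DN62835_c1_g2) had 71.9, 26.3 and 45.4 TPM across the non-treatment replicates against 6.84, 11.4 and 8.86 TPM across the antibiotic replicates. Isopentenyl diphosphate isomerase (TRINITY_DN59020_c0_g2) had 177, 109 and 158 TPM against 40.4, 50.9 and 47.2 TPM. Both were lower, by -2.20 ± 0.37 and -1.64 ± 0.24 (limma adjusted p = 0.00982 and 0.00525). The CPB match to farnesyl pyrophosphate synthase (TRINITY_DN62320_c2_g1), the branch point to JH, had 24.8, 16.5 and 31.4 TPM against 18.2, 29.4 and 20 TPM, which overlapped (-0.08 ± 0.29, limma adjusted p = 0.897). The largest difference of the list belonged to TRINITY_DN64742_c6_g2, a match to isopentenyl diphosphate synthases of flea beetles, with 215, 115 and 210 TPM against 0.157, 0.0312 and 0.581 TPM (-7.14 ± 0.30, limma adjusted p = 2.55e-05). In Swissprot it matched farnesyl pyrophosphate synthase. So did TRINITY_DN60900_c6_g1 (-1.24), TRINITY_DN64886_c1_g1 (-3.72) and TRINITY_DN65910_c1_g1 (-1.71), which were also lower. TRINITY_DN63675_c4_g3 (-1.68), TRINITY_DN55736_c3_g2 (-0.35) and TRINITY_DN55736_c3_g1 (0.34) had such a match too and were not called. TRINITY_DN64742_c6_g2 and TRINITY_DN64886_c1_g1 had passed the floor in the non-treatment group only, so that they had to be lower on average. Of all genes that passed so, 24.8% were lower, and of all genes over the floor in both groups 2.67%. In this list, non-treatment replicate 2, the library with the highest intestain level, was the lowest of its group in the sum (464 TPM, against 849 and 780 TPM). The number lower in the list was 3 without antibiotic replicate 1, 4 without non-treatment replicate 3, and 5 without non-treatment replicate 1, antibiotic replicate 2 or antibiotic replicate 3. It was 9 without non-treatment replicate 2 alone, and 8 without non-treatment replicate 2 and antibiotic replicate 3 together.

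JH carriers. Of the 7 genes matched to JH binding proteins, 5 matched partial CPB proteins, named JH binding protein 3p2 and 5p2, and 2 carried the Pfam JHBP domain. All 5 CPB matches were higher in every non-treatment library than in any antibiotic library, and 4 were called. The 3 matches to 5p2 had passed the floor through the non-treatment group only, so that they had to be lower on average. They held 2 of the 4 calls, where 24.8% of all genes that passed so were called lower. Of the 4 carriers over the floor in both groups, 2 were lower, beside 2.67% of all such genes. Those 2, the 3p2 matches, were over it in the antibiotic group through antibiotic replicate 3 alone. Over all genes tested, 6730 of 33919 were higher in every non-treatment library than in any antibiotic library. TRINITY_DN59678_c3_g1 (3p2) had 25.7, 439 and 50.1 TPM in non-treatment replicates 1 to 3 and 0, 0 and 9.74 TPM in antibiotic replicates 1 to 3 (-5.26 ± 1.23, limma adjusted p = 0.0361). TRINITY_DN52470_c11_g9 (3p2) had 34.3, 270 and 93.3 TPM against 0, 0 and 15.6 TPM (-5.24 ± 1.17, limma adjusted p = 0.0311). In both, non-treatment replicate 2 was far above the rest and antibiotic replicate 3 was the only antibiotic library above 0.

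Of the 5p2 matches, TRINITY_DN56460_c3_g7 had 15.3, 20 and 71 TPM across the non-treatment replicates and 0, 0 and 0.0224 TPM across the antibiotic replicates (-4.85 ± 0.52, limma adjusted p = 0.00168). Here non-treatment replicate 3 was the highest. TRINITY_DN56460_c3_g4 had 2.47, 1.98 and 0.643 TPM and was listed at 0 in every antibiotic library. On the depth-scaled count (CPM) it was at least 20.8-fold lower, taking 3 counts per library as the floor in the antibiotic libraries with counts. TRINITY_DN56460_c3_g5, with 1.33, 25.9 and 10.8 TPM against 0, 0 and 1.04 TPM, was not called (limma adjusted p = 0.074). The last 3 genes lie in 1 Trinity cluster.

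The carriers with the JHBP domain, the fold of moth haemolymph JH binding protein and of takeout in *Drosophila*, did not share this pattern. TRINITY_DN57778_c3_g1 had 36.3, 35 and 21.8 TPM against 9.82, 22.3 and 57.6 TPM, and TRINITY_DN55691_c5_g1 had 11.6, 32.8 and 23 TPM against 14.2, 33.7 and 9.15 TPM. Both overlapped (-0.35 ± 0.56 and -0.31 ± 0.52, limma adjusted p = 0.751 and 0.759). Of 26 genes with that domain, a list chosen after the data were seen, 1 was lower and 1 higher. The count of 4 carriers lower was 1 without non-treatment replicate 2, antibiotic replicate 1 or antibiotic replicate 2, with both 3p2 matches no longer called, 2 without non-treatment replicate 3, and 3 without non-treatment replicate 2 and antibiotic replicate 3 together.

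The carrier level and the gut marker were highest in the same library of each group. Summed over the 7 carriers it was 127, 825 and 271 TPM in non-treatment replicates 1 to 3 and 24.0, 56.0 and 93.2 TPM in antibiotic replicates 1 to 3. Non-treatment replicate 2 and antibiotic replicate 3 were the highest of their group in the carriers and in the intestains. Between antibiotic replicates 1 and 2 the order differed, with 9.03 and 6.35 TPM for the intestains and 24.0 and 56.0 TPM for the carriers. The 5 CPB matches summed to 0 TPM in both, so the carrier sum there came from the genes with the JHBP domain. The part of gut RNA in the result was not tested. Of 118 gut digestion genes, 37 were lower in the antibiotic group and 3 higher, beside 7.26% lower and 2.88% higher among all genes tested. The number lower was 16 without antibiotic replicate 1, 19 without antibiotic replicate 2, 23 without non-treatment replicate 2 and 24 without non-treatment replicate 3. It was 31 without antibiotic replicate 3 and 47 without non-treatment replicate 1.

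JH-inducible proteins. These 12 genes shared a single best match, a putative juvenile hormone-inducible protein of the flea beetle genus *Phyllotreta*, and 8 of them carried the EcKinase domain, named for an enzyme that phosphorylates ecdysteroids in the silkworm. The name rests on that match, and no result here shows a response to JH. Of the 12, 7 were lower and 9 were higher in every non-treatment library than in any antibiotic library. Of these, 5 of the 7 and 6 of the 9 had passed the floor through the non-treatment group only, so that they had to be lower on average. Over the floor in both groups, 2 of 5 were lower, beside 2.67% of all such genes. Those 2, TRINITY_DN61566_c3_g6 and TRINITY_DN50982_c3_g1, were over it in the antibiotic group through antibiotic replicate 3 alone. Every non-treatment library was above any antibiotic library in 6730 of all 33919 genes tested. Among all genes over the floor in both groups this held for 2640 of 22882. TRINITY_DN61566_c3_g6 had 27.6, 114 and 19.2 TPM across the non-treatment replicates and 0.249, 0.15 and 4.39 TPM across the antibiotic replicates (-4.36 ± 0.79, limma adjusted p = 0.0135). TRINITY_DN50982_c3_g1 had 12.7, 63.9 and 29.3 TPM against 0, 0 and 3 TPM (-4.24 ± 0.70, limma adjusted p = 0.0094). TRINITY_DN63386_c2_g2 had 5.21, 84.3 and 19.2 TPM against 0.027, 0.0255 and 1.76 TPM (-3.95 ± 0.89, limma adjusted p = 0.0316). In these 3 genes non-treatment replicate 2 was the highest library and antibiotic replicate 3 the highest of its group.

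Among the others, TRINITY_DN58163_c0_g3 had 10.3, 30.6 and 19.5 TPM against 0, 0.4 and 0.748 TPM (-3.85 ± 0.40, limma adjusted p = 0.00164). TRINITY_DN61566_c3_g3 had 12.1, 30.5 and 18.9 TPM against 0.718, 0.246 and 1.3 TPM (-3.57 ± 0.38, limma adjusted p = 0.00164). TRINITY_DN57685_c4_g1 had 10.7, 34.4 and 19.1 TPM against 0, 0 and 1.9 TPM (-3.83 ± 0.54, limma adjusted p = 0.00463). In these genes non-treatment replicate 2 stood less far above its group, and their SE was smaller. The other gene called lower was TRINITY_DN50982_c3_g9, at -3.51 (limma adjusted p = 0.0124).

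Not every relative was lower. TRINITY_DN63386_c2_g1, the most abundant in the antibiotic group, had 21.5, 43.1 and 76.8 TPM against 20.2, 27.5 and 36.2 TPM, which overlapped (-0.59 ± 0.45, limma adjusted p = 0.466), although it lies in the same Trinity cluster as TRINITY_DN63386_c2_g2. TRINITY_DN54738_c3_g3 overlapped too, with 2.51, 11 and 36.8 TPM against 3.66, 6.64 and 20.9 TPM.

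Among all 37 genes with the EcKinase domain, a list chosen after the data were seen, 11 were lower and 2 higher. Over all genes tested, 7.26% were lower and 2.88% higher. Of the 11, only TRINITY_DN58163_c0_g5, TRINITY_DN60204_c2_g1 and TRINITY_DN61563_c0_g3 were over the floor in both groups. The rest had passed it through the non-treatment group only, so that they had to be lower on average. The number lower rested on single libraries, at 2 without antibiotic replicate 1 or 2, 5 without non-treatment replicate 3 and 7 without non-treatment replicate 2, and edgeR with TMM scaling called 4 lower. The 29 of them outside the 76 genes held 8 lower and both higher calls. TRINITY_DN61563_c0_g3, the most abundant of these, had 272, 129 and 236 TPM against 48.2, 53.8 and 75 TPM (-1.79 ± 0.32, limma adjusted p = 0.0135). The higher genes were TRINITY_DN58681_c4_g5, with 0.817, 0.669 and 0.715 TPM against 8.91, 8.01 and 7.57 TPM, and TRINITY_DN62497_c7_g1, with 6.96, 8.16 and 6.75 TPM against 20.7, 15.6 and 16 TPM. TRINITY_DN58681_c4_g5 had passed the floor through the antibiotic group only, so that it had to be higher on average. The number of JH-inducible proteins lower was 3 without antibiotic replicate 1, 4 without antibiotic replicate 2, and 6 without non-treatment replicate 2 and antibiotic replicate 3 together. edgeR with TMM scaling called 3 of the 12 lower and DESeq2 called 4, on the 5 libraries with counts.

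**Figure D3:**
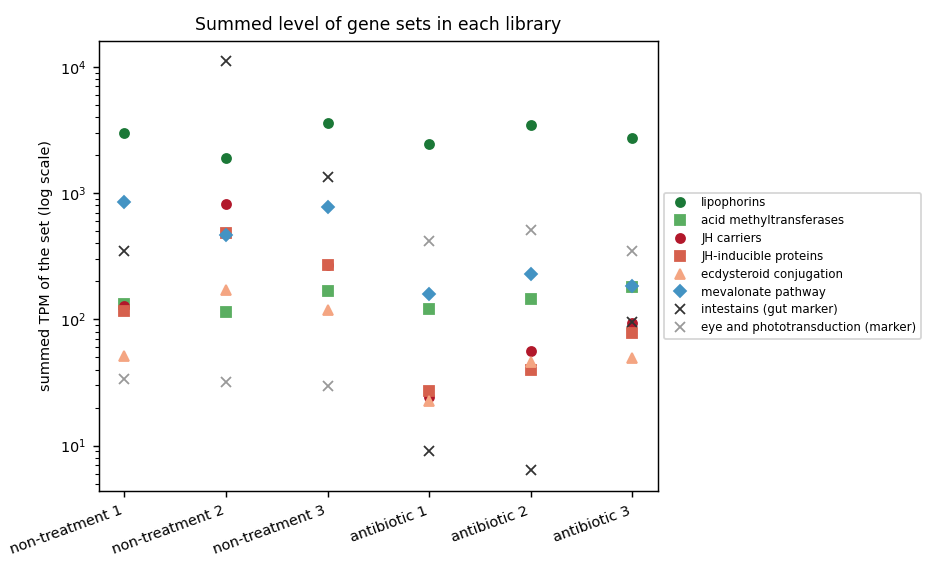
Summed TPM (y axis, log scale) of 6 gene sets and of 2 marker lists in each of the 6 libraries (x axis). The carriers, the JH-inducible proteins and the intestains were highest in non-treatment replicate 2 and, within the antibiotic group, in replicate 3, while the lipophorins lay between 1907 and 3609 TPM in every library.

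JH breakdown. The 2 JH epoxide hydrolases were among the most abundant of the 76 genes. JH epoxide hydrolase 1 (TRINITY_DN49852_c0_g2) had 147, 164 and 162 TPM across the non-treatment replicates and 111, 140 and 140 TPM across the antibiotic replicates, and JH epoxide hydrolase 2 (TRINITY_DN54555_c6_g2) had 73.3, 102 and 83.2 TPM against 84, 122 and 98.9 TPM. The first did not overlap between the groups and the second did. Their differences were -0.28 ± 0.19 and 0.24 ± 0.22, and neither was called (limma adjusted p = 0.427 and 0.571).

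Of the 6 genes matched to a JH esterase, 4 matched the JH esterase of the moth *Heliothis virescens* in Swissprot while their CPB match was named only esterase or alpha-esterase. TRINITY_DN57580_c2_g2 had 5.52, 60.6 and 25.5 TPM against 0.309, 0.0274 and 3.2 TPM and was lower (-3.63 ± 0.85, limma adjusted p = 0.0359) and, like the summed carriers, was highest in non-treatment replicate 2 and, within its group, in antibiotic replicate 3. It was not called without non-treatment replicate 2 or 3, nor without antibiotic replicate 1 or 2, nor by DESeq2 or by edgeR with a count filter. TRINITY_DN59763_c1_g4 had 37.6, 149 and 18 TPM against 53.7, 70.6 and 44 TPM, and TRINITY_DN50942_c6_g1 had 7.38, 40.2 and 14.9 TPM against 6.16, 2.56 and 12.5 TPM, and both overlapped. The CPB JH esterase-related protein (TRINITY_DN53803_c0_g1) lay between 2.36 and 7.28 TPM over the 6 libraries and overlapped as well; it carried no esterase domain. The gene matched to putative CPB JH esterase (TRINITY_DN61325_c4_g3) was matched by its nucleotide sequence to a CPB transposon.

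JH and ecdysone receptors. The JH receptor methoprene-tolerant (TRINITY_DN61895_c1_g1) was near the floor, with 0.992, 1.69 and 1.79 TPM across the non-treatment replicates and 0.31, 1.91 and 0.853 TPM across the antibiotic replicates. The ecdysone receptor (TRINITY_DN64377_c3_g1) had 0.844, 1.38 and 1.02 TPM against 0.474, 1.15 and 0.907 TPM. Both overlapped, with antibiotic replicate 1 the lowest library in each, and neither was called (-0.36 ± 0.35 and -0.18 ± 0.27, limma adjusted p = 0.577 and 0.726). The ecdysone receptor was also among the genes just inside the rule, with group means of 1.08 and 0.845 TPM, next to a vitellogenin-like gene (TRINITY_DN59037_c0_g4, 1.05 and 0.629 TPM). Just outside it were an arylphorin-like gene (TRINITY_DN50170_c0_g2, 0.832 and 0.189 TPM) and a conjugating enzyme (TRINITY_DN48915_c0_g1, 0.775 and 0 TPM). Ultraspiracle (TRINITY_DN56846_c2_g2), the partner of the ecdysone receptor and no member of the 76, had 4.04, 3.8 and 3.95 TPM against 4.21, 6.77 and 7.02 TPM (0.48 ± 0.24, limma adjusted p = 0.271).

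Ecdysone response genes. E75 (TRINITY_DN53297_c9_g3), an early ecdysone response gene, had 34.5, 30.7 and 32.2 TPM across the non-treatment replicates and 38.2, 52.9 and 55.5 TPM across the antibiotic replicates. Every antibiotic library was higher, and the difference of 0.56 ± 0.21 was not called (limma adjusted p = 0.146); with median-of-ratios scaling it was called higher (0.62, limma adjusted p = 0.0459). The other 8 genes of this role overlapped between the groups. They included zinc finger protein on ecdysone puffs, which binds RNA at active genes in *Drosophila*, as TRINITY_DN65225_c0_g1 (45.9, 64 and 76 against 43.1, 91 and 60.3 TPM) and TRINITY_DN53143_c2_g3 (21.7, 25.2 and 24.5 against 21.8, 25 and 20.6 TPM). The latter was the steadiest of the role.

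Ecdysoneless (TRINITY_DN55388_c0_g2) had 5.31, 5.1 and 5.84 TPM against 5.64, 8.12 and 6.65 TPM. The broad-complex match TRINITY_DN55936_c2_g1 had 0.698, 1.11 and 1.59 TPM against 0.551, 1.22 and 1.36 TPM. TRINITY_DN61721_c6_g1 was matched to the broad-complex in Swissprot but to longitudinals lacking in NR, and had 33.4, 29.9 and 14.1 TPM against 16.6, 18.5 and 16.4 TPM. None of these was called (limma adjusted p = 0.483, 0.924 and 0.419). Without non-treatment replicate 3, TRINITY_DN61721_c6_g1 was called lower (-0.84). The CPB broad-complex isoforms Z1 and Z2 were under the floor.

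Of the hormone P450 enzymes, 3 were past the floor and none was called. The CPB match to CYP314A1 (TRINITY_DN60661_c1_g1), which makes the active 20-hydroxyecdysone, had 1.98, 1.45 and 3.44 TPM against 0.557, 0.887 and 0.851 TPM without overlap (-0.86 ± 0.29, limma adjusted p = 0.119). CYP18A1 (TRINITY_DN62099_c3_g1), which inactivates 20-hydroxyecdysone in *Drosophila*, went the other way, with 2.04, 1.65 and 1.53 TPM against 2.35, 3.10 and 4.85 TPM, also without overlap (0.66 ± 0.27, limma adjusted p = 0.19). CYP306A1 (TRINITY_DN55128_c4_g1), an enzyme of ecdysone synthesis, overlapped (0.28 ± 0.26, limma adjusted p = 0.574). On counts, edgeR and DESeq2 each called 1 of the 3 higher and none lower. Of 9 further transcription factors and coactivators linked to the hormones, none was called, and their median difference was -0.085. The groups overlapped in 7, and 2 were higher in every antibiotic library, ultraspiracle and HR3. HR3 (TRINITY_DN58014_c5_g4) had 0.336, 0.197 and 0.393 TPM against 1.05, 1.58 and 1.19 TPM (0.79 ± 0.25, limma adjusted p = 0.0951). It had passed the floor through the antibiotic group only, so that it had to be higher on average. On counts, edgeR and DESeq2 each called 1 of the 9 higher and none lower.

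Ecdysteroid conjugation. The 11 genes of this role took their name from ecdysteroid UDP-glucosyltransferases of baculoviruses, which inactivate the moulting hormone of their host, and 10 carried the UDPGT domain. By NR they matched UDP-glucuronosyltransferases of *Tribolium castaneum* or unnamed beetle proteins, so the substrate is not known. Of the 11, 5 were lower and none was higher, beside 7.26% lower and 2.88% higher among all genes tested. Of the 6 that had passed the floor through the non-treatment group only, 4 were lower, where 24.8% of all such genes were. Of the 5 over the floor in both groups, 1 was lower, TRINITY_DN62222_c0_g2, beside 2.67% of all such genes. It had 9.6, 15.2 and 16.7 TPM across the non-treatment replicates and 1.9, 3.58 and 2.81 TPM across the antibiotic replicates. That is 13.9 ± 3.76 against 2.76 ± 0.839 TPM (SD, n = 3), a difference of -1.97 ± 0.28 (limma adjusted p = 0.00525), and neither group had a library that stood apart.

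TRINITY_DN44897_c0_g1 had 4.23, 35.2 and 16.3 TPM against 0.037, 0 and 1.44 TPM (-3.45 ± 0.69, limma adjusted p = 0.0206). TRINITY_DN61069_c4_g3 had 5.35, 22 and 16.7 TPM against 0.438, 0.476 and 0.77 TPM (-3.14 ± 0.46, limma adjusted p = 0.00564). TRINITY_DN55961_c12_g2 had 2.13, 3.58 and 5.02 TPM and was listed at 0 in every antibiotic library, at least 89.9-fold lower on the depth-scaled count (CPM) against the same floor of 3 counts per library. The groups stayed apart in these genes, but all had passed the floor through the non-treatment group only, so that they had to be lower on average. Only the first had non-treatment replicate 2 far above the rest.

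TRINITY_DN63541_c5_g2 showed the wide spread of the carriers, with 2.21, 48.8 and 10.5 TPM against 0, 0.0486 and 2.13 TPM, and was not called (-3.04 ± 0.94, limma adjusted p = 0.0904). The most abundant gene of the role, TRINITY_DN54013_c3_g1, overlapped, with 19.2, 20.9 and 31.6 TPM against 15.2, 32.9 and 30.5 TPM (0.09 ± 0.34). The number lower was 4 by edgeR with TMM scaling and 4 by DESeq2, 3 without antibiotic replicate 1, 8 without non-treatment replicate 1, and 1 without non-treatment replicate 2 and antibiotic replicate 3 together.

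Yolk. The vitellogenin match with the highest level, TRINITY_DN59119_c0_g1, whose relative is vitellogenin 2 of the cabbage beetle *Colaphellus bowringi*, had 15.7, 3.04 and 39 TPM across the non-treatment replicates and 4.3, 52.3 and 7.54 TPM across the antibiotic replicates. Non-treatment replicate 3 and antibiotic replicate 2 were far above the other libraries of their group, and the groups overlapped. The difference was -0.06 ± 1.03 (limma adjusted p = 0.982), so a difference of the size of this SE was not detectable. TRINITY_DN57865_c3_g3, matched to vitellogenin 1 of the same beetle, had 1.36, 0.618 and 1.33 TPM against 0.429, 1.74 and 1.03 TPM. The vitellogenin receptor-like gene (TRINITY_DN62049_c1_g1), which also matches the vertebrate VLDL receptor, had 21, 14.7 and 28.9 TPM against 14, 30.5 and 38.7 TPM. Both overlapped (-0.05 ± 0.33 and 0.29 ± 0.40, limma adjusted p = 0.944 and 0.708). The gene matched to the yolk receptor of *Drosophila* (TRINITY_DN58852_c0_g1) was under the floor, at a mean of 0.158 TPM over the 6 libraries.

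Storage hexamers. Diapause protein 1 (TRINITY_DN60833_c3_g1), the arylphorin-like hexamerin known from CPBs entering diapause, had 42.8, 17.2 and 28.4 TPM across the non-treatment replicates and 13.2, 45.2 and 14.7 TPM across the antibiotic replicates. Antibiotic replicate 2 was the highest library of all and the other antibiotic libraries were the lowest, and the difference of -0.40 ± 0.51 was not called (limma adjusted p = 0.682). The arylphorin-like gene TRINITY_DN55547_c0_g1 had 2.07, 0.833 and 0.36 TPM against 0.103, 0.554 and 0.264 TPM, which overlapped (-0.61 ± 0.36). Antibiotic replicate 2 was also the highest library in vitellogenin TRINITY_DN59119_c0_g1, and non-treatment replicate 2 was the lowest of its group in vitellogenin, in diapause protein 1 and in both abundant lipophorins.

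Lipophorins. The lipid carriers of the blood summed to between 1907 and 3609 TPM, of between 3194 and 5253 TPM for the 76 genes together, which was between 0.319% and 0.525% of a library. In non-treatment replicate 2 they held less than the rest of the 76 genes (1907 of 4441 TPM), and in the other 5 libraries more. Apolipophorin-III (TRINITY_DN61716_c0_g1), the exchangeable carrier that helps load lipid for flight, had 1612, 960 and 2111 TPM across the non-treatment replicates and 1238, 1917 and 1459 TPM across the antibiotic replicates. Apolipophorins (TRINITY_DN62804_c2_g1), the precursor of the particle's structural proteins, had 1339, 902 and 1446 TPM against 1160, 1481 and 1194 TPM. Both overlapped, and their differences were 0.03 ± 0.35 and 0.08 ± 0.28 (limma adjusted p = 0.973 and 0.897). A relative, TRINITY_DN59037_c0_g1, had 38, 43.8 and 51.7 TPM against 45.8, 81.5 and 67.5 TPM (0.51 ± 0.26, limma adjusted p = 0.281).

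**Figure D4:**
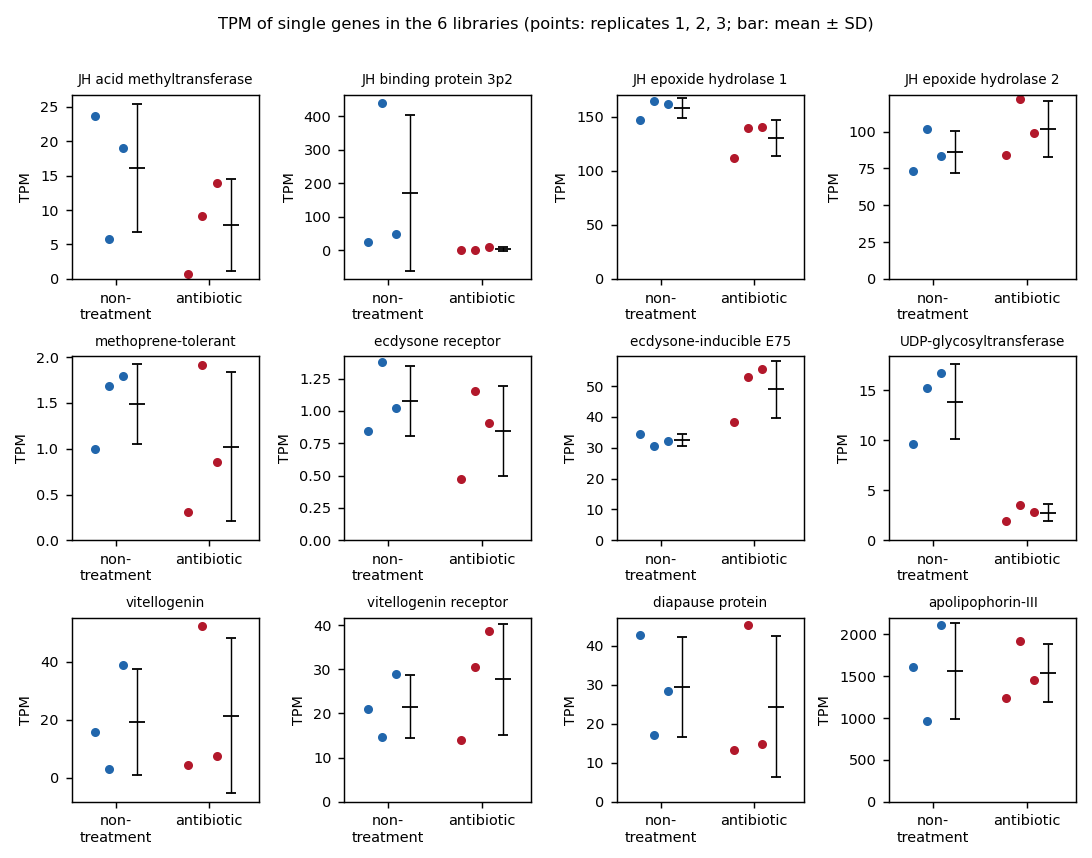
TPM (y axis) of 12 genes in the non-treatment (blue) and antibiotic (red) libraries; points are replicates 1, 2 and 3, bars are the mean ± SD (n = 3). The UDP-glycosyltransferase (TRINITY_DN62222_c0_g2) kept the groups apart with little spread, while vitellogenin and diapause protein each had 1 antibiotic library above 45 TPM and the others below 15 TPM.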

How the data were processed

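Material labelled as heads of CPBs was sequenced as 3 non-treatment and 3 antibiotic libraries, and groups came from the labels. The authors deposited TPM for Trinity genes, which the methods ascribe to featureCounts while the submitters' processing notes name Salmon with no role, and estimated counts, which need not be whole. No versions of these tools are given in the sources used here. The notes name mm10, which is a mouse build. Count totals lay between 25397497 and 33613953 in 5 libraries. For antibiotic replicate 1, only TPM was used here, and its count total is unknown.

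TPM was tested with limma 3.58.1 (R 4.3.3, mean-variance trend, no covariate) on log2(TPM + 1), which understates changes of low genes, for genes with a mean of at least 1 TPM in a group. edgeR 4.0.16 and DESeq2 1.42.0 were run on counts rounded to whole numbers, as alternatives. The fits were tested on simulated counts with planted changes and the same spread setting for every gene. The genes here need not share that spread, so the simulation gives no error rate for their calls. The 76 genes and the lists were chosen with earlier results of these data known. Named genes were, in each role, the 4 of highest mean and the 3 of smallest p, plus the receptors and the broad-complex; others were named after their values were seen. No sequence or coordinate was used.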

Additional observations from a re-analysis of the deposited data

How the results depend on the processing

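Among all genes tested, 3440 were called (976 higher), and among the 76 genes 19 (0 higher). Leaving out each library in turn gave 1765 to 3867 (512 to 855 higher), 8 to 23, and 3 to 9 for the mevalonate pathway (8). The 19 fell to 12 with a pseudocount of 5, 13 without a filter on low values, and 11 with edgeR (TMM or size factors), and rose to 35 (5 higher) with edgeR without a count filter. Without non-treatment replicate 2 and antibiotic replicate 3, an alternative chosen after seeing the data, 1065 genes (201 higher) and 11 of the 76 were called. All genes called numbered 2138 (492 higher) without the filter, 6908 (2025 higher) at an unadjusted limma p under 0.05 with more than a 2-fold ratio of mean TPM, which called 27 of the 76, and 6807 (2121 higher) with edgeR without a filter. DESeq2 called 13 of the 76 (1 higher), and the mevalonate count was 5 with edgeR and TMM and 9 with DESeq2. Of the hormone P450s, none called, 1 was called higher by edgeR and by DESeq2 and 1 lower with the unadjusted p; of the transcription factors, none called, 1 was called higher by each. Higher calls among the 76 numbered 1 with a pseudocount of 0.1, 1 with the floor over all libraries and 2 with median-of-ratios scaling, which moved the median of all genes from -0.092 to -0.0449; the tests on counts without a filter and DESeq2 had medians of -0.44 and -0.48. None of the 19 turned higher under any alternative. The cause of these shifts was not tested.

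Whether the replicate numbers pair the samples was not settled. Deviations of same-numbered libraries correlated at 0.1302, -0.09211 and 0.0985. Non-treatment replicates 1 and 3 correlated best with the antibiotic library of the same number, and non-treatment replicate 2 with antibiotic replicate 3 (0.0799). With the replicate block, 2615 genes (734 higher), 16 of the 76 and 7 mevalonate genes were called.

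Some uncalled genes changed sign. With 1 library left out, the differences ran from -0.11 to 0.43 for TRINITY_DN54013_c3_g1, -0.80 to 0.0816 for TRINITY_DN55691_c5_g1, -0.22 to 0.12 for TRINITY_DN55936_c2_g1, -0.98 to 0.24 for TRINITY_DN57778_c3_g1, -0.28 to 0.19 for TRINITY_DN57865_c3_g3, -1.05 to 0.70 for TRINITY_DN59119_c0_g1, -0.44 to 1.05 for TRINITY_DN59763_c1_g4, -0.0329 to 0.36 for TRINITY_DN61184_c4_g1, -0.53 to 0.10 for TRINITY_DN61657_c4_g5, -0.29 to 0.28 for TRINITY_DN61716_c0_g1, -0.13 to 0.21 for TRINITY_DN62804_c2_g1 and -0.25 to 0.28 for TRINITY_DN65225_c0_g1. Without the libraries of highest intestain level, the difference was 0.0205 for TRINITY_DN53143_c2_g3, -0.13 for TRINITY_DN54013_c3_g1, 0.40 for TRINITY_DN55691_c5_g1, -0.0899 for TRINITY_DN61184_c4_g1, -0.26 for TRINITY_DN61716_c0_g1, -0.24 for TRINITY_DN62049_c1_g1 and -0.0862 for TRINITY_DN62804_c2_g1. On counts (edgeR with TMM, with size factors and without a filter, then DESeq2), it was 0.60, 0.60, 0.61 and 0.63 for TRINITY_DN55936_c2_g1, 0.42, 0.42, 0.43 and 0.45 for TRINITY_DN57778_c3_g1, 0.24, 0.24, 0.26 and 0.27 for TRINITY_DN57865_c3_g3, 0.25, 0.26, 0.27 and 0.28 for TRINITY_DN59119_c0_g1, -0.25, -0.27, -0.25 and -0.24 for TRINITY_DN59763_c1_g4, 0.13, 0.13, 0.14 and 0.16 for TRINITY_DN61657_c4_g5 and 0.0888, 0.0874, 0.10 and 0.12 for TRINITY_DN63386_c2_g1, and by DESeq2 0.00793 for TRINITY_DN60833_c3_g1. The counts lack antibiotic replicate 1.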

Other observations

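Krüppel homolog 1 of the CPB, the direct target of the JH receptor, was not among the 76 genes because its match is spelled Kruppel-like protein 1. TRINITY_DN58291_c6_g2 had 66.3, 73.4 and 57.5 TPM across the non-treatment replicates and 76.6, 84.2 and 103 TPM across the antibiotic replicates. Every antibiotic library was above every non-treatment library, and the difference of 0.41 ± 0.20 (SE) was not called (limma adjusted p = 0.269).

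A pair of genes of 1 Trinity cluster matched the putative JH diol kinase of the CPB, an enzyme of JH breakdown, by nucleotide sequence only, and so were also outside the rule. Their best protein matches carried other names, succinyl-CoA ligase for TRINITY_DN61455_c0_g2 and calexcitin-1 for TRINITY_DN61455_c0_g3. TRINITY_DN61455_c0_g2 had 34.7, 36.8 and 43.6 TPM against 19.7, 5.91 and 5.41 TPM, and TRINITY_DN61455_c0_g3 had 6.65, 18.6 and 14.6 TPM against 2.32, 2.33 and 1.19 TPM. Both were lower in the antibiotic group (-2.01 ± 0.44 and -2.20 ± 0.38, limma adjusted p = 0.0278 and 0.0112).

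The gene with a JHBP domain and the highest level in any library, TRINITY_DN52651_c1_g5, had no NR or Swissprot match. It had 64.2, 1764 and 131 TPM in non-treatment replicates 1 to 3 and 0.0531, 0 and 38.4 TPM in antibiotic replicates 1 to 3, with the highest library of each group the same as in the JH binding protein 3p2 matches, and was not called (-6.16 ± 1.66, limma adjusted p = 0.0596). These genes were chosen after their values were seen.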
